A study of Rattus norvegicus with 16 samples.

Results

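The enzymes described here are 8 genes of cholesterol synthesis, namely Hmgcs1, Idi1, Fdps, Fdft1, Sqle, Lss, Cyp51 and Dhcr7, taken by gene name from the array's annotation. They are read by 9 of the 30367 probes on the array, which carries 26269 gene names. Each gene has 1 probe except Fdps, which has 2. The study silenced Pdrg1, a small prefoldin-like protein, in H35 cells, a rat hepatoma line, and asked how expression differed from that in cells given a control plasmid. Of the 16 one-colour arrays, 4 held RNA of CN-10, a stable clone carrying a plasmid with a negative control shRNA. Another 4 held RNA of 4-18, a stable clone with the shRNA4 sequence against Pdrg1, and 4 held RNA of 3-44, a stable clone with the shRNA3 sequence. The remaining 4 held RNA of shRNA3T, a transiently transfected pool with the shRNA3 sequence. All cells, controls included, had been through G418 selection at 1.8 mg/ml for 2 weeks, and the stable clones through a further 2 weeks at 4 mg/ml. Each stable group is a single clone, kept because RT-qPCR gave reproducible results in it, and the pool had no control pool of its own, so that all comparisons with the control share the same 4 CN-10 arrays. The 4 replicates of each group were biological replicates according to the labels. Those of a stable group repeat a single clone, so that differences between clones cannot be told apart from silencing in any comparison with CN-10.

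Cholesterol is built from acetyl-CoA through mevalonate, the isoprenoid pyrophosphates, squalene and lanosterol. When sterols in the endoplasmic reticulum run low, the membrane-bound transcription factor SREBP-2 is released and raises transcription of nearly all the enzymes of this route, so that in liver cells the genes often move as a group. In liver the route supplies membranes, lipoproteins and bile acids.

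Array signals were brighter than the background for every enzyme on each of the 16 arrays, with mean log2 intensities between the 80.9 and 97.1 percentiles of all probes. Between 53.1% and 74.3% of gene spots were well above background on an array. The 4-18 arrays were the dimmest, with 75th percentiles of the processed signal from 1613 to 1878, against 2290 to 3648 in the other groups. Each group lay on a slide of its own, and the 4-18 slide was scanned on another day than the other 3 slides, which means that a slide effect cannot be told apart from the group in any comparison. Of 8 hepatocyte markers, 6 were well above background on all 16 arrays, Apoh on none and Hnf4a on 15. Markers of other cell types were mixed. Of the leukocyte markers Ptprc was well above background on none of the arrays, Cd3e on 1 and Cd68 on 15, and of the endothelial markers Pecam1 on none, Kdr on 6 and Cdh5 on all 16. Of the stellate cell or fibroblast markers Col1a1 was above background on all 16 arrays and Col1a2, Des and Acta2 on 15, with Des lower than in CN-10 by log2 differences of -1.17, -0.81 and -0.98 in 4-18, 3-44 and shRNA3T. Of the cholangiocyte markers Sox9 was above background on 15 arrays, Krt7 on 2 and Krt19 on the 4 CN-10 arrays only. The part of these markers in the results was not tested. In cultured cells measured in bulk, fewer cells of a kind and less RNA per cell cannot be told apart. Values below are normalized log2 intensities after quantile normalization, a gene is called changed where limma's adjusted p was under 0.05 over all probes, and levels of different probes are not set against each other.

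The silenced gene itself was lower in each group. Pdrg1 read 13.41, 13.88, 13.51 and 13.77 in CN-10 (replicates 1 to 4), 11.57, 13.33, 13.34 and 13.25 in 4-18, 11.89, 12.86, 12.90 and 12.95 in 3-44, and 12.39, 12.90, 12.97 and 12.90 in shRNA3T. All 12 silenced arrays lay below all 4 control arrays. The log2 differences of -0.77, -0.99 and -0.85 had a two-sided exact permutation p of 0.0286 each, the smallest that 4 arrays against 4 can give, but did not pass limma's adjustment over all probes (adjusted p = 0.129, 0.105 and 0.143). The 4-18 value rested on replicate 1. Without that array the Pdrg1 difference was -0.33 in 4-18 (adjusted p = 0.349), and those in 3-44 and shRNA3T, unchanged in size, passed the threshold (adjusted p = 0.00860 and 0.0149).

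Of the 8 enzymes, 1 was called higher in 4-18 (Hmgcs1), 2 in 3-44 (Hmgcs1 and Fdps) and 1 in shRNA3T (Fdps). The only enzyme called lower against CN-10 was Idi1, in shRNA3T. The background for these counts is the share of all probes called. In 4-18, 11.6% of probes were called higher and 12.0% lower. In 3-44, 3.48% were called higher and 4.37% lower, and in shRNA3T 5.0% and 6.85%. The median log2 difference of the 8 enzymes was -0.08 in 4-18, 0.46 in 3-44 and 0.04 in shRNA3T, beside medians of 0.0057, -0.0031 and -0.0072 over all probes. The enzymes thus lay highest as a group in 3-44, where 6 of 8 differences were above 0, and were split 4 to 4 in the other groups. With 1 array left out at a time, the median ran from 0.36 to 0.49 in 3-44, from -0.17 (without CN-10 replicate 3) to 0.03 (without 4-18 replicate 4) in 4-18, and from -0.06 (without CN-10 replicate 3) to 0.20 (without CN-10 replicate 4) in shRNA3T, so that only the 3-44 median kept its sign. Without normalization between arrays the medians of the enzymes were -0.82, 0.34 and 0.03, and in 4-18 the median was 0.15 over all probes and -0.67 over the 5795 probes at least as bright as the dimmest of the 8 enzymes. With the further requirement of a 2-fold change, no enzyme remained in 4-18 (5.91% of all probes did), and Fdps alone remained in 3-44 (1.4% of probes) and in shRNA3T (2.29% of probes).

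**Figure D1:**
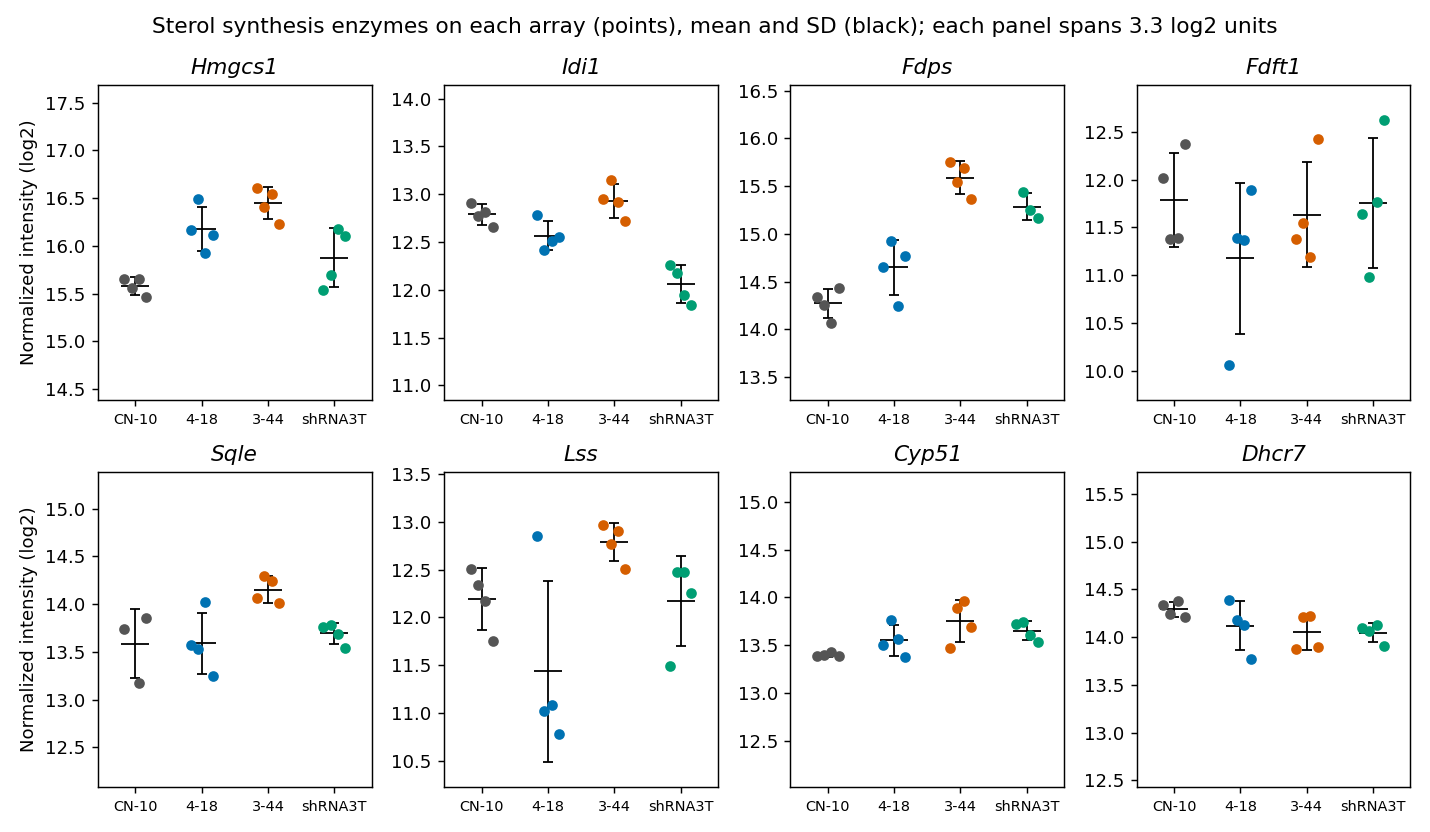
Normalized log2 intensity of each of the 8 enzymes on every array (points, replicates 1 to 4 from left to right), with the group mean and SD in black. Each panel spans the same log2 range but has its own level; Fdps sits highest in 3-44 and shRNA3T, Idi1 lowest in shRNA3T, and Fdft1 and Lss scatter widely within groups.

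Hmgcs1 encodes the cytosolic HMG-CoA synthase, which makes the substrate from which mevalonate is formed. Its probe lies at chr2:51754514-51754573 on the plus strand of rn4 and is annotated to the Hmgcs1 transcript. Hmgcs1 read 15.65, 15.56, 15.65 and 15.46 in CN-10, 16.17, 16.49, 15.93 and 16.12 in 4-18, 16.61, 16.41, 16.54 and 16.23 in 3-44, and 15.54, 15.69, 16.18 and 16.11 in shRNA3T. Every array of both silenced clones lay above every control array, whereas the pool was divided, with replicates 1 and 2 near the control and replicates 3 and 4 near the clones. The level rose 1.51-fold in 4-18 (log2 difference 0.59 ± 0.15 SE, adjusted p = 0.00767, n = 4 against 4 by limma) and 1.82-fold in 3-44 (0.87 ± 0.15, adjusted p = 0.00164). In shRNA3T the difference was 0.30, with a 95% confidence interval from -0.02 to 0.61 and an adjusted p of 0.251. The pool was also below the 3-44 clone, which carries the same shRNA sequence, by a called 0.57 (adjusted p = 0.0208). Under 75th-percentile scaling the 3-44 difference was 0.54 and no longer called (adjusted p = 0.0805). The rise in 4-18 held only where arrays were scaled to each other. Without normalization between arrays the difference was -0.03, on a scale on which the median over the 5795 brightest probes was -0.67, as given above.

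RefSeq's promoter table for the GRCr8 build held 6 of the 8 enzymes (not Sqle or Fdft1), as windows from 250 bases before to 50 bases after each gene's start. The 250 bases before the start are printed for the 3 genes called against CN-10, 5′ to 3′ on the gene's strand, because they show which letters of known sterol-responsive promoters these windows hold. Capitals mark CCAAT, the box bound by NF-Y (written ATTGG where it lies on the opposite strand), and in Fdps also CTCACACGA, the core of the sterol regulatory element described for this promoter and called SRE-3.
Hmgcs1 (chr2:53382054-53382303, plus strand): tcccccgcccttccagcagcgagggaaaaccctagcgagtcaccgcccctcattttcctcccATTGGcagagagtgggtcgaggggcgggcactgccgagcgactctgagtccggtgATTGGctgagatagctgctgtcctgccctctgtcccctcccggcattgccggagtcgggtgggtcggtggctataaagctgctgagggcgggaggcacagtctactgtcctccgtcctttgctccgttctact
Idi1 (chr17:66547525-66547774, minus strand): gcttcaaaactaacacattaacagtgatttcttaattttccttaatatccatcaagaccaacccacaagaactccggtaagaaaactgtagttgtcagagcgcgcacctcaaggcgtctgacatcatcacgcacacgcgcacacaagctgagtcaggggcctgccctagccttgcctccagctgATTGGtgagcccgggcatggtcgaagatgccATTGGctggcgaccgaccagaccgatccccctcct
Fdps (chr2:176804817-176805066, minus strand): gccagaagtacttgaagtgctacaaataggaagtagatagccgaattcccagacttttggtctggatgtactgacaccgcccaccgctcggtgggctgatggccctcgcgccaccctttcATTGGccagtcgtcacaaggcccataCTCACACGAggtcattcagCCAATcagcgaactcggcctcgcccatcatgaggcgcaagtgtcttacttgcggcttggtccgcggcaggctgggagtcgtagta
Both strands of each full window of 300 bases were searched. CCAAT was found in 4 of the 6 windows, with 2 matches each in Hmgcs1, Idi1 and Fdps and 1 in Lss, and in 37.7% of the 27457 promoters in the table. The letters GGGCGG of the GC box, which binds Sp1, were found in all of the 6 but Idi1, and in 34.9% of all promoters. CTCACACGA was found only in Fdps among the 6, starting 104 bases before the start between the pair of CCAAT boxes, which begin at 130 and 85 bases before it, and in 0.0728% of all promoters (20 of them). TCACNCCAC, the classical sterol regulatory element, was in none of the 6 and in 1.13% of all promoters, which says only that these letters are not in these windows. The motifs do not overlap one another in the stretches shown. A match is a description of the sequence, and binding was not measured.

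Idi1, the isopentenyl pyrophosphate isomerase, supplies the activated isoprene unit for the next condensation. Its probe lies at chr17:72557223-72557282 on the minus strand of rn4, and RefSeq also lists 1 pseudogene copy, with which shared signal was not tested. Idi1 read 12.91, 12.78, 12.82 and 12.65 in CN-10, 12.78, 12.41, 12.51 and 12.56 in 4-18, 12.95, 13.14, 12.91 and 12.72 in 3-44, and 12.26, 12.18, 11.95 and 11.84 in shRNA3T. The pool lay below every other array of the study, and both clones overlapped the control. In shRNA3T the level fell by 0.73 on the log2 scale (SE 0.11, adjusted p = 0.000511), which is 1.66-fold lower. The difference was -0.22 in 4-18 (interval -0.47 to 0.02, adjusted p = 0.187) and 0.14 in 3-44 (-0.10 to 0.38, adjusted p = 0.570). The pool and the 3-44 clone, which carry the same shRNA3 sequence, differed in Idi1 by 0.87 (1.83-fold, adjusted p = 0.000148).

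Fdps, farnesyl diphosphate synthase, makes the farnesyl unit at the branch point between sterols, dolichol, ubiquinone and prenylated proteins. It was the enzyme with the largest called change against CN-10, and the only one read by 2 probes. Both probes are 60 bases long, are annotated to the same transcript, and are printed because they read different stretches of it and did not give the same calls.
A_44_P432965: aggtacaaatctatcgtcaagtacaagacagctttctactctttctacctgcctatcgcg
A_64_P147190: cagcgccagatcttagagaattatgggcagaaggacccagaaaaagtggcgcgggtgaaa
The files place A_44_P432965 at chr2:181170192-181170336 and A_64_P147190 at chr2:181168650-181168691, both on the minus strand of rn4. These stretches span 145 and 42 bases, so that neither has the length of its 60-base probe. The probe with the higher mean, A_44_P432965, stands for the gene in all counts. It read 14.33, 14.25, 14.06 and 14.43 in CN-10, 14.65, 14.92, 14.25 and 14.77 in 4-18, 15.75, 15.54, 15.68 and 15.36 in 3-44, and 15.44, 15.25 and 15.17 in replicates 2 to 4 of shRNA3T, the spot of replicate 1 having been flagged as an outlier by the scanner software and left out of the fit. No array of 3-44 or shRNA3T reached down to those of CN-10 or 4-18. The level rose 2.49-fold in 3-44 (1.31 ± 0.14 SE, adjusted p = 4.59e-05) and 2.02-fold in shRNA3T (1.01 ± 0.15, adjusted p = 0.000424, n = 3 against 4 by limma). In 4-18 the difference of 0.38 (interval 0.08 to 0.68) was not called (adjusted p = 0.0636), but was 0.51 with an adjusted p of 0.00725 when replicate 3 of 4-18, the lowest of its group, was left out, and -0.34 without normalization between arrays. With the flagged spot kept, the difference in shRNA3T was 0.83 (adjusted p = 0.00614), below the 2-fold limit.

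The second Fdps probe gave the same directions, with more scatter in CN-10, 4-18 and 3-44 and less in shRNA3T. It read 14.25, 13.73, 14.04 and 13.55 in CN-10, 14.35, 14.84, 14.00 and 13.89 in 4-18, 14.04, 15.00, 14.47 and 14.88 in 3-44, and 15.02, 14.97 and 15.08 in replicates 2 to 4 of shRNA3T. By this probe the pool was highest and the 3-44 clone overlapped the control, whereas by the first probe the 3-44 clone had the highest mean. Its differences were 0.38 in 4-18, 0.71 in 3-44 and 1.13 in shRNA3T, with adjusted p-values of 0.287, 0.0890 and 0.00870, so that both probes were called in the pool and only 1 in the clone. The mean of both probes rose by 1.01 in 3-44 (adjusted p = 0.000371) and by 1.07 in shRNA3T (adjusted p = 0.000249). RefSeq lists 5 pseudogene copies of Fdps, and how far they share signal with either probe was not tested.

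**Figure D2:**
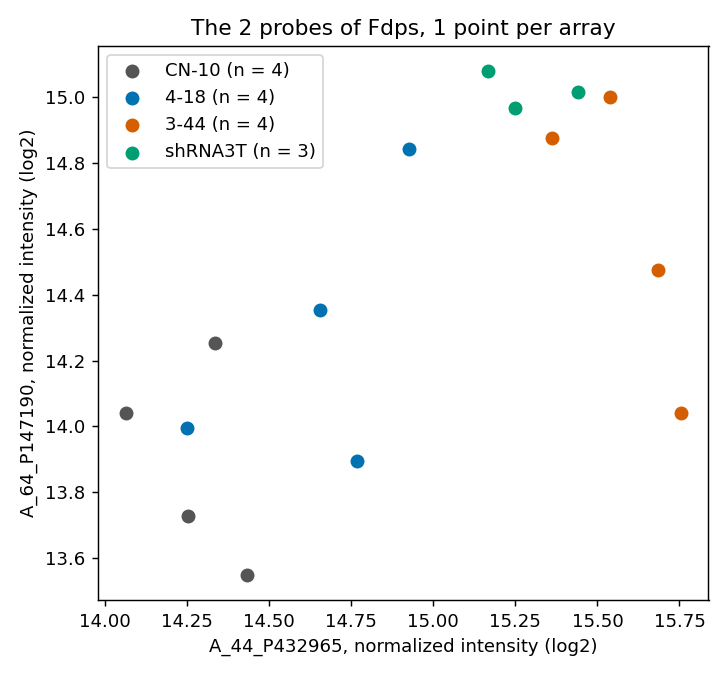
Normalized log2 intensity of the Fdps probes A_44_P432965 (horizontal axis) and A_64_P147190 (vertical axis), 1 point per array, coloured by group. The 3 measured shRNA3T arrays are high on both axes, while the 3-44 arrays are all high on the horizontal axis and range from 14.04 to 15.00 on the vertical axis.

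Fdft1 and Sqle carry out the first steps that belong to sterols alone. Fdft1, squalene synthase, joins farnesyl units to squalene, and its probe lies at chr15:42425389-42425448 on the minus strand of rn4. Fdft1 read 12.01, 11.38, 11.39 and 12.38 in CN-10, 10.05, 11.39, 11.36 and 11.89 in 4-18, 11.37, 11.55, 11.19 and 12.43 in 3-44, and 11.64, 10.98, 11.76 and 12.63 in shRNA3T. All groups overlapped, replicate 4 was the highest in each of them, and none of the 3 differences was called (-0.61, -0.16 and -0.03, adjusted p from 0.328 to 0.982). Without 4-18 replicate 1, the lowest array of all, the 4-18 difference was -0.24 (adjusted p = 0.722). The intervals with all arrays, for example from -1.49 to 0.26 in 4-18, were too wide to show a change of the size seen for Hmgcs1.

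Sqle, squalene epoxidase, is regarded as a second rate-limiting enzyme of the route, and its probe lies at chr7:96111693-96111752 on the plus strand of rn4. Sqle read 13.73, 13.17 and 13.85 in replicates 1, 3 and 4 of CN-10 (the spot of replicate 2 was flagged and left out of the fit), 13.57, 13.53, 14.02 and 13.25 in 4-18, 14.06, 14.30, 14.24 and 14.01 in 3-44, and 13.77, 13.78, 13.69 and 13.53 in shRNA3T. The 3-44 arrays lay above all control and pool arrays. The difference of 0.56 in 3-44 (interval 0.18 to 0.94) nonetheless missed the threshold (adjusted p = 0.0718), and passed it with the flagged spot kept (0.61, adjusted p = 0.0301) or without 4-18 replicate 3 (the same 0.56, adjusted p = 0.0346). Without CN-10 replicate 3, the lowest control array, it was 0.36 (adjusted p = 0.293). The differences in 4-18 and shRNA3T were 0.00 (adjusted p = 0.992) and 0.11 (adjusted p = 0.835).

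Lss, lanosterol synthase, closes the sterol ring system. Its probe lies at chr20:12507646-12507705 on the minus strand of rn4. Lss read 12.51, 12.34, 12.17 and 11.76 in CN-10, 12.85, 11.03, 11.08 and 10.78 in 4-18, 12.97, 12.77, 12.90 and 12.51 in 3-44, and 11.49, 12.47, 12.47 and 12.26 in shRNA3T. In 4-18 replicates 2 to 4 lay below every other array of the study and replicate 1 lay within the range of 3-44. With all arrays the 4-18 difference of -0.76 was not called (adjusted p = 0.156), and without 4-18 replicate 1 it was -1.23 (adjusted p = 0.00126). In 3-44 the difference was 0.59 (interval -0.18 to 1.37, adjusted p = 0.419), with no array of 3-44 below one of CN-10, and in shRNA3T it was -0.02 (adjusted p = 0.988).

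Cyp51 and Dhcr7 act after lanosterol. Cyp51, the lanosterol demethylase, was read by 10 spots of 1 probe, at chr4:26771049-26771108 on the plus strand of rn4, and had the smallest spread of the 8 enzymes in CN-10. Cyp51 read 13.39, 13.40, 13.42 and 13.38 in CN-10, 13.50, 13.76, 13.57 and 13.37 in 4-18, 13.47, 13.89, 13.96 and 13.69 in 3-44, and 13.72, 13.74, 13.61 and 13.53 in shRNA3T. All arrays of 3-44 and of the pool lay above all control arrays. The differences were small, 0.35 in 3-44 (interval 0.13 to 0.58, adjusted p = 0.0526) and 0.25 in shRNA3T (0.03 to 0.48, adjusted p = 0.155), and neither was called. Under 8 of 30 alternatives the 3-44 difference was called, including the fit with the replicate number as a block (0.35, adjusted p = 0.0336) and the fits without 3-44 replicate 1 (0.45, adjusted p = 0.0102), without 4-18 replicate 2 (adjusted p = 0.0347) and without 4-18 replicate 4 (adjusted p = 0.0461).

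Dhcr7, which reduces 7-dehydrocholesterol to cholesterol in the last step of the route, was read by a probe at chr1:204258565-204258624 on the plus strand of rn4. Dhcr7 read 14.34, 14.24, 14.38 and 14.21 in CN-10, 14.39, 14.18, 14.13 and 13.77 in 4-18, 13.88, 14.21, 14.22 and 13.89 in 3-44, and 14.10, 14.06, 14.13 and 13.90 in shRNA3T. Dhcr7 and Fdft1 were the enzymes with a mean below that of CN-10 in all silenced groups. The differences of -0.17, -0.24 and -0.24 were not called (adjusted p = 0.353, 0.298 and 0.250), and the lowest bound of their intervals was -0.50.

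**Figure D3:**
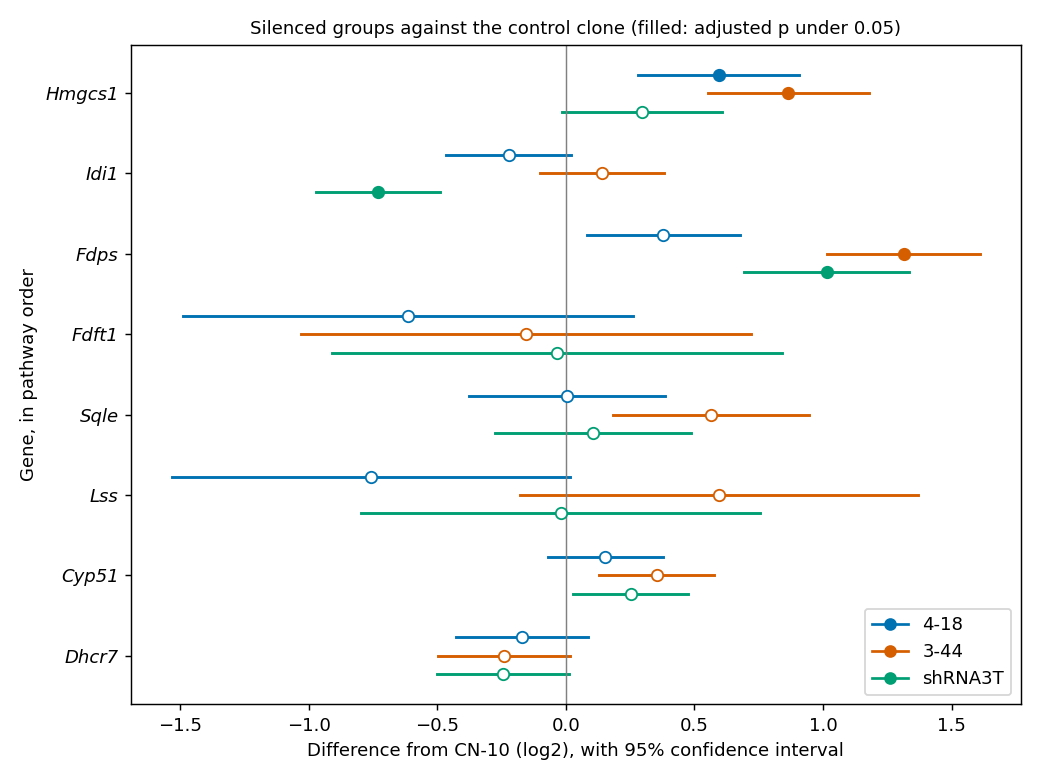
Log2 difference of each silenced group from CN-10 for the 8 enzymes in pathway order, with the 95% confidence interval from limma. Filled points had an adjusted p under 0.05; these are Hmgcs1 in 4-18 and 3-44, Fdps in 3-44 and shRNA3T, and Idi1 in shRNA3T.

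The silenced groups were then tested against each other in the same fit, which asks whether the enzymes differed between silenced populations. Of the 8 enzymes, 4 were called between 4-18 and 3-44, where 22.1% of all probes were, and each was lower in 4-18. Lss was 2.56-fold lower (-1.35 ± 0.36 SE, adjusted p = 0.0139) and Fdps 1.91-fold lower (-0.94 ± 0.14, adjusted p = 0.000217). Sqle was 1.47-fold lower (-0.56 ± 0.16, adjusted p = 0.0242) and Idi1 1.29-fold lower (-0.36 ± 0.11, adjusted p = 0.0322), although for Lss, Sqle and Idi1 the arrays of both clones overlapped. Leaving out replicate 2 or 4 of 4-18, or replicate 2 or 3 of 3-44, each brought the count from 4 to 2. The share of all probes called was then 22.6%, 22.3%, 18.8% and 18.5% in turn. Between 4-18 and shRNA3T, 2 enzymes were called, against 20.1% of all probes. Fdps was lower (-0.64 ± 0.15, adjusted p = 0.00723) and Idi1 higher (0.51 ± 0.11, adjusted p = 0.00465) in 4-18. With the flagged spot kept, the Fdps difference was -0.45 (adjusted p = 0.0978), and without normalization between arrays the Idi1 difference was -0.23. Between 3-44 and shRNA3T, with the same shRNA3 sequence, 2 enzymes were called, against 10.6% of all probes, both higher in the clone: Idi1, given above, and Hmgcs1. The call of Hmgcs1 was lost without replicate 1 or 3 of 3-44 and without replicate 1 or 2 of shRNA3T (0.46 to 0.54, adjusted p from 0.0579 to 0.0653), and under 75th-percentile scaling the difference was 0.24 and not called. Fdps did not pass the test between 3-44 and shRNA3T (0.30, interval -0.02 to 0.62, adjusted p = 0.256).

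The enzymes did not vary as a unit over the arrays. Over the 28 pairs of enzymes, Pearson's r across arrays ran from -0.49 (Fdps and Dhcr7) to 0.74 (Hmgcs1 and Fdps), with a median of 0.19 and 17 pairs above 0. The pairs below 0 all held Fdft1 or Dhcr7, except Idi1 with Fdps (-0.07) and Idi1 with Cyp51 (-0.0069). These values describe up to 16 arrays that share groups and slides, and pairs of other genes were not taken for comparison. The mean of the standardized values of the 8 enzymes lay between 0.45 and 1.01 on the 3-44 arrays and between -0.78 and 0.01 on the other 12. The genes whose values on the 16 arrays followed that mean most closely, among 11238 genes well above background throughout, were Dkc1, which encodes the pseudouridine synthase dyskerin (r = 0.86), Aldh1b1, a mitochondrial aldehyde dehydrogenase (0.86), Haus8, an augmin subunit (0.84), Magix (0.82) and Aptx, which encodes the DNA repair protein aprataxin (0.82). Within groups the median SD of the enzymes was 0.13 for CN-10, 0.27 for 4-18, 0.18 for 3-44 and 0.17 for shRNA3T, beside 0.13, 0.20, 0.16 and 0.12 over all probes.

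Other enzymes of the same route were also followed. Of 13 further genes in the list, 12 were found on the array, and 10 of these were well above background on all 16 arrays. In 4-18, 2 were called higher and 3 lower, in 3-44 3 were called higher and none lower, and in shRNA3T 2 were called higher and none lower. The shares over all probes were 11.6% higher and 12.0% lower in 4-18, 3.48% and 4.37% in 3-44, and 5.0% and 6.85% in shRNA3T. Their median differences were -0.02, 0.34 and -0.02, with 6, 12 and 6 of the 12 differences above 0 in 4-18, 3-44 and shRNA3T. Nsdhl, which acts in the demethylation of lanosterol derivatives, was the only one of them called with at least a 2-fold change in a shRNA3 group. It read 11.04, 10.73, 11.76 and 11.34 in CN-10 and 12.59, 12.28, 12.38 and 11.96 in 3-44, without overlap. Nsdhl was 2.12-fold higher in 3-44 (1.08, adjusted p = 0.00285) and 1.80-fold higher in shRNA3T (0.84, adjusted p = 0.0103), while the 4-18 difference was -0.40 (adjusted p = 0.175). Ggps1, which extends the farnesyl unit outside the sterol branch, was 2.15-fold higher in 4-18 (1.10, adjusted p = 0.0174), with 1 of 4 arrays of 4-18 at 7.55, inside the control range of 7.40 to 8.02. The Ggps1 call was lost without replicate 1 or 3 of 4-18 or replicate 3 of CN-10 (0.86, 0.97 and 1.02, adjusted p = 0.0579, 0.0532 and 0.0514). Without 4-18 replicate 2, the array inside the control range, Ggps1 differed by 1.498 in 4-18 (adjusted p = 0.000102), and its difference of 0.64 in shRNA3T was called (adjusted p = 0.0353, against 0.237 with all arrays).

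The remaining called genes of that list were named after their values had been seen. Mvk, mevalonate kinase, rose by 0.82 in 4-18 (adjusted p = 6.51e-05) and 0.77 in 3-44 (adjusted p = 0.000470), and differed by -0.12 in shRNA3T (adjusted p = 0.616). Mvd, which decarboxylates mevalonate pyrophosphate just before the step of Idi1, rose by 0.78 in 3-44 and by 0.86 in shRNA3T (adjusted p = 0.00410 and 0.00118). In the pool, therefore, the genes on both sides of Idi1 in the route were called higher and Idi1 lower. The genes called lower in 4-18 were Pmvk, phosphomevalonate kinase (-0.35, adjusted p = 0.0171), Tm7sf2, a sterol reductase (-0.68, adjusted p = 0.00334), and Msmo1, a sterol methyl oxidase listed as Sc4mol on the array (-0.42, adjusted p = 0.0317).

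**Figure D4:**
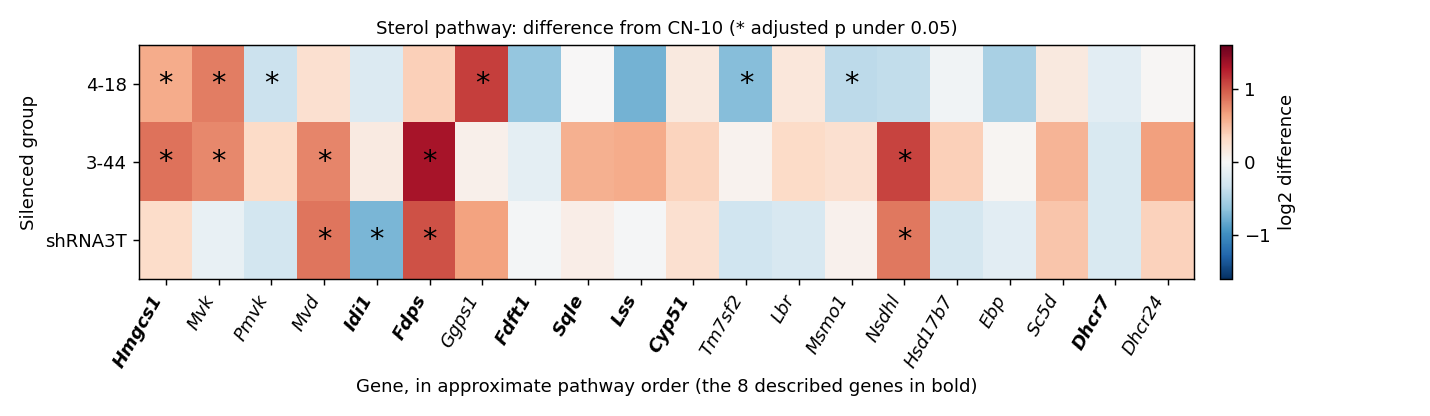
Log2 difference from CN-10 (colour) of the 8 enzymes (bold) and 12 other genes of the sterol pathway, in approximate pathway order, for each silenced group. Asterisks mark an adjusted p under 0.05; the 4-18 row holds called genes in both directions, the 3-44 row only higher ones, and the shRNA3T row only Idi1 among the lower ones.

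Among 9 genes that govern SREBP processing or respond to it, 2 were called higher in 4-18, 1 in 3-44 and 2 in shRNA3T, and none lower. Of all probes, 11.6%, 3.48% and 5.0% were called higher and 12.0%, 4.37% and 6.85% lower. Srebf2, which encodes SREBP-2, and Srebf1 were named after their values had been seen. In 4-18, 3-44 and shRNA3T, Srebf2 differed by 0.87, -0.15 and 0.65 (adjusted p = 0.282, 0.927 and 0.559). Srebf1 differed by 0.14, -0.83 and -0.24 (adjusted p = 0.783, 0.0923 and 0.722). Insig1 anchors the SREBP complex in the endoplasmic reticulum and is itself an SREBP target. It read 12.38, 13.52, 13.37 and 13.58 in CN-10 and 13.88, 13.82, 14.22 and 14.18 in 4-18. In 3-44 it read 13.28, 13.96, 14.34 and 13.96, and in shRNA3T 14.36, 14.51, 14.35 and 14.14. It rose by 0.81 in 4-18 (adjusted p = 0.0270) and by 1.13 in shRNA3T (2.18-fold, adjusted p = 0.00697), and the 3-44 difference was 0.67 (adjusted p = 0.133). Replicate 1 of CN-10 lay well below the other control arrays. Without it Insig1 differed by 0.53 in 4-18 and by 0.39 in 3-44, neither called (adjusted p = 0.0674 and 0.315), and by 0.85 in shRNA3T (adjusted p = 0.0116). The 4-18 call was also lost without replicate 3 or 4 of 4-18 (0.74 and 0.76), and the 3-44 difference was called without 3-44 replicate 1 (0.87, adjusted p = 0.0391). The other called genes, named after their values had been seen, were Scap, the escort protein of SREBP (0.57 and 0.61 in 3-44 and shRNA3T, adjusted p = 0.0213 and 0.00987), and Stard4, a sterol carrier (0.85 in 4-18, adjusted p = 0.000947). The counts rest on the probe with the highest mean, and second probes gave other calls. The second probe of Stard4 was not called in 4-18 (0.30, adjusted p = 0.0756) and was called higher in 3-44 (0.48, adjusted p = 0.0165). Second probes of Insig2, a relative of Insig1, and of Mbtps2, a protease that releases SREBP, were called higher in shRNA3T (0.99, adjusted p = 0.00964) and lower in 4-18 (-0.46, adjusted p = 0.0111).

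Of 11 genes of sterol efflux, storage and turnover, 6 were well above background on all 16 arrays and 3 (Abcg1, Abcg8 and Mylip) on none. Of the 11, 3 were called higher in 4-18, 1 higher and 1 lower in 3-44, and 2 higher and 1 lower in shRNA3T. Over all probes, 11.6% were called higher in 4-18, 3.48% higher and 4.37% lower in 3-44, and 5.0% higher and 6.85% lower in shRNA3T. Cyp27a1, the sterol hydroxylase of the alternative bile acid pathway, rose by 0.74 in 4-18 (adjusted p = 0.00460) and by 1.47 in shRNA3T (2.77-fold, adjusted p = 4.49e-05), and differed by 0.46 in 3-44 (adjusted p = 0.155), where replicate 1 was flagged. Named after their values had been seen, the other genes called were Abcg5, a sterol exporter (0.78 in 3-44 and 0.73 in shRNA3T, adjusted p = 0.0150 and 0.0161), Abca1, the cholesterol efflux pump (0.65 in 4-18, adjusted p = 0.000532), and 2 sterol-sensing nuclear receptors, of which Nr1h2 rose by 0.55 in 4-18 (adjusted p = 0.0101) and Nr1h3 fell by 0.30 in 3-44 (adjusted p = 0.0297) and by 0.69 in shRNA3T (adjusted p = 3.29e-05).

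The hepatocyte markers also differed between the groups, which was not tested. Of the 7 that were detected, 5 lay below their CN-10 mean in 4-18, whereas 5 lay above it in 3-44 and 6 in shRNA3T. In 4-18, 3-44 and shRNA3T in turn, the log2 differences from CN-10 were -1.50, 1.02 and 0.23 for Tf (transferrin), -0.68, 0.66 and 1.16 for Fgb (fibrinogen beta chain), -0.59, 0.32 and 0.33 for Tat (tyrosine aminotransferase) and -0.37, 0.45 and 0.16 for Hnf4a, a hepatocyte transcription factor. Ttr (transthyretin) differed by 2.93, 2.84 and 2.38, and Ahsg (fetuin-A) by -1.29, -0.25 and -0.48. Alb (albumin) stayed within 0.10 of CN-10 in each group. Tf, Fgb, Tat, Hnf4a and Ahsg had their lowest mean in 4-18, and Ttr and Alb their highest. The part of these differences in the enzymes' values was not tested.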

How the data were processed

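Total RNA of 16 cultures (4 groups of 4) had been hybridised to Agilent rat 4x44K one-colour arrays. The deposited scanner files hold mean, median and processed spot intensity and local background intensity per the file headers, and the authors' series table holds log2 values, which matched log2 of the normexp-corrected median signal without scaling between arrays (column medians 7.23 to 8.90). The submitters' processing notes name limma, and the build is rn4 in the scanner files. Here normexp (offset 50) was fitted to the mean intensity and median local background of all spots, 1377 control spots were removed, arrays were quantile normalized, scanner-flagged outlier spots were left out and the spots of a probe averaged. limma 3.58.1 in R 4.3.3 fitted 1 mean per group over 16 arrays, with Benjamini-Hochberg adjustment over all probes. The fit was tested on simulated data without slide or clone effects, so that this test says nothing on such effects. Where probes share a gene, the one with the highest mean stands for it. Confidence intervals are at 95%. The number of arrays limits the precision.

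The enzymes and gene lists were chosen with earlier results of these data known, and the lists do not cover every gene of the pathway. Named genes are the 8 enzymes, Pdrg1, list genes called with at least 2-fold in a comparison with CN-10, and the 5 genes closest to the enzymes' mean profile, with exceptions stated. Alternatives covered normalization, background correction, filters, flagged spots, probe averaging, array weights, the groups fitted, the replicate block and left-out arrays. Replicate numbers paired the arrays only for 3-44 and shRNA3T, where the deviations of same-numbered arrays from their group means correlated at r over 0.1 for each of 4 numbers, and the block changed no count there.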

Additional observations from a re-analysis of the deposited data

Results flagged for a closer look

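In 33 groups of 4 arrays checked among the enzymes' probes, 1 array stood apart from its group by Dixon's criterion, which chance meets in about 1 of 20 groups. It was Lss in replicate 1 of 4-18, at 12.85 on the log2 scale, while the other 3 arrays of the clone read 10.78 to 11.08.

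Differences between the silenced groups were tested in the same limma fit. Those of the enzymes that passed the threshold are given here. Of all probes, 22.1% passed in 4-18 against 3-44, while 20.1% did so for 4-18 set against the pool and 10.6% for 3-44 set against it. Fdps differed by -0.94 between 4-18 and 3-44 and by -0.64 between 4-18 and shRNA3T. Idi1 differed by -0.36 between 4-18 and 3-44, by 0.51 between 4-18 and shRNA3T and by 0.87 between 3-44 and shRNA3T. Hmgcs1 differed by 0.57 between 3-44 and shRNA3T. Between 4-18 and 3-44, Sqle differed by -0.56 and Lss by -1.35. The difference in Idi1 between 3-44 and shRNA3T held for each of the 4 arrays of the clone against each of the 4 of the pool. Both carry the same shRNA sequence, and clone, selection and slide cannot be told apart there.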

How the results depend on the processing

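Over 32 single differences and 30 alternatives each, 866 of 960 values kept direction and side of the threshold, 27 passed it newly, 35 no longer passed it and 32 changed sign. Fdps in 3-44 was called under all 30 alternatives (0.81 to 1.39). The main dependence was on scaling between arrays. Without normalization, and with the deposited series values, which are not scaled either, Hmgcs1 in 4-18 was -0.029 and -0.042, Fdps -0.34 and -0.39, Cyp51 -0.58 and -0.58, Sqle -0.76 and -0.76, and Idi1 between 4-18 and shRNA3T -0.23 and -0.24. Under both, enzymes called in 4-18 were 0 higher and 4 lower, in 3-44 1 higher, in shRNA3T 0 in each direction, and between 3-44 and shRNA3T 0, while without normalization 4 were called between 4-18 and shRNA3T. Without normalization fewer probes were called in all (15.2% in 4-18, 0.721% in 3-44 and 1.46% in shRNA3T, against 23.6%, 7.85% and 11.9% in either direction with it), and against CN-10 the enzyme differences that lost their call were 0.83 for Hmgcs1 in 3-44 (0.87 with it) and, in shRNA3T, 1.07 for Fdps (1.01) and -0.72 for Idi1 (-0.73). Between 4-18 and shRNA3T 13.2% of all probes were called without normalization, and between 3-44 and shRNA3T 1.26%, against 20.1% and 10.6% with it. The share of called probes that were higher in 4-18 was 49.2% with normalization and 7.24% without. With scaling to the 75th percentile the median of all probes was 0.20 in 4-18, -0.04 in 3-44 and -0.23 in shRNA3T. Under that scaling Hmgcs1 in 3-44 and between 3-44 and shRNA3T was no longer called. The sign also changed for Sqle in 4-18 (-0.10) and shRNA3T (-0.20), Lss in shRNA3T (0.10) and Dhcr7 in 3-44 (0.047). Cyclic loess gave Sqle -0.066 in 4-18 and 1 call between 3-44 and shRNA3T, where 12.0% of all probes were called. Array weights gave 1 lower enzyme in 4-18, 4 higher in 3-44, 3 higher in shRNA3T and 5 between 3-44 and shRNA3T, with Fdft1 at 0.12 and Lss at 0.17 in shRNA3T, while the share of all probes called rose to 15.3% in 3-44, 25.1% in shRNA3T and 22.0% between them. Fitting only both groups compared gave 2 higher in shRNA3T and 2 between 4-18 and 3-44. The shares of all probes called were then 16.6% and 15.3%, against 11.9% and 22.1% in the main fit. Keeping flagged spots gave 1 between 4-18 and shRNA3T, where 20.3% of all probes were called, against 20.1% in the main fit. The 2-fold limit left 0 higher in 4-18, 1 in 3-44, 0 lower in shRNA3T, and 1, 0 and 0 between silenced groups (4-18 and 3-44, 4-18 and shRNA3T, 3-44 and shRNA3T). Without replicate number 1 of every group, 1 was lower in 4-18 (Lss), 4 were higher in 3-44 and 1 differed between 3-44 and shRNA3T, with Fdft1 at 0.0057 in 3-44 and 0.078 in shRNA3T and Lss at 0.31 in shRNA3T. Without those arrays, 25.1% of all probes were called in 4-18, 10.1% in 3-44 and 10.4% between 3-44 and shRNA3T. With all arrays these shares were 23.6%, 7.85% and 10.6%. Of the probes called in 3-44, 32.3% were higher without them, against 44.4% with all arrays. The causes were not tested.

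Leaving out 1 array at a time, enzymes called higher ran from 1 to 2 in 4-18 (2 without replicate 3, when Fdps passed) and from 2 to 3 in 3-44, and those called lower in 4-18 from 0 to 1. Between 4-18 and 3-44 the count ran from 2 to 4. It ran from 2 to 3 between 4-18 and shRNA3T and from 1 to 2 between 3-44 and shRNA3T. The share of all probes called in either direction ran from 19.6% to 25.1% in 4-18 and from 5.16% to 8.87% in 3-44. Between 4-18 and 3-44 the share ran from 18.5% to 23.1%. It ran from 16.3% to 21.7% between 4-18 and shRNA3T and from 7.65% to 11.9% between 3-44 and shRNA3T. Differences that changed sign were Fdft1 in 3-44 (-0.42 to 0.040) and shRNA3T (-0.33 to 0.22), Sqle in 4-18 (-0.20 to 0.14) and shRNA3T (-0.10 to 0.24), and Lss in shRNA3T (-0.17 to 0.21), none of them called. With the replicate block, 3 enzymes were higher in 3-44 in place of 2 (Cyp51 was added). The share of all probes called there was 9.69%, against 7.85% without the block. With it, Sqle in 4-18 was -0.016, and no other count changed. Same-numbered arrays correlated at r from -0.13 to 0.50 over the 12590 probes used, above 0.1 in 15 of 24 pairs, and 11 of 16 arrays correlated best with their own number.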
